A study of Mus musculus with 24 samples.

Results

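The mitochondrial respiratory chain passes electrons from NADH and succinate to oxygen through complexes I to IV, and complex V, the ATP synthase, uses the proton gradient so built to make ATP. Its subunits are encoded partly by mitochondrial DNA and mostly by nuclear genes, whose products must be imported and joined in fixed proportions with the help of assembly factors. Neurons rely on this chain for most of their ATP, and neurons of the basal hypothalamus that sense energy balance have been linked to mitochondrial function in rodents. The nuclear genes of the chain were chosen by name, as all array symbols that begin with Nduf, Uqcr, Cox4 to Cox8 or Atp5, together with Sdha, Sdhb, Sdhc and Sdhd. This gave 89 genes of the 19856 genes with 1 symbol on the array. They comprise 36 complex I genes (NADH dehydrogenase), 7 complex I assembly factors (Ndufaf genes), 4 complex II genes (succinate dehydrogenase), 8 complex III genes (cytochrome c reductase), 17 complex IV genes (cytochrome c oxidase) and 17 ATP synthase genes. Ndufa4 is counted here with complex I by its name, although its protein is now regarded as a complex IV subunit.

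RNA came from the mediobasal hypothalamus of C57BL76J mice, as the labels spell the strain, and was hybridised to Affymetrix arrays. In the timed sleep restriction group (TSR), mice were prevented from sleeping by gentle handling between zeitgeber time (ZT, counted in hours from lights on) 0 and 6. This was done on 5 days in a row and, after 2 days of free sleep, on 5 further days, while the mice of the control group (CON) were left undisturbed. Both groups were sampled at ZT1, ZT7, ZT13 and ZT19 with 3 mice each, 24 arrays in all, and the comparison asks how restriction of sleep in the rest phase alters transcript levels and their daily course. The labels state neither age nor sex nor the day of sampling, and the number of arrays limits the precision.

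Values are log2 probe-set signals, and the arrays were not alike. In 4 of them the interquartile range of all probe sets was 2.12 to 2.25 log2 units, against 2.96 to 3.29 in the other 20. These narrow arrays were TSR ZT1 replicate 3, TSR ZT13 replicate 2 and CON ZT19 replicates 2 and 3. The counts of members called are therefore given from all 24 arrays and from the 20 others. Differences of single members are from the 20 unless the 24 are named, and in the 20 the CON ZT19 group has 1 array, whose spread is taken from the remaining groups. The median residual standard deviation of the tested members was 0.38 with 24 arrays and 0.099 with 20. Of the markers of the labelled tissue, Sst averaged 12.18, Tac2 8.65 and Npy 7.04 in the 20 arrays, whereas Pomc and Nr5a1 lay under the filter on low levels. In bulk tissue, fewer cells of a type and less RNA per cell cannot be told apart.

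In each of the 5 complexes, the member with the highest mean level was Ndufa4 for complex I, Sdha for complex II, Uqcrc2 for complex III, Cox6c for complex IV and Atp5b for the ATP synthase. Their mean levels over 24 arrays were 10.87 for Ndufa4, 10.33 for Sdha, 9.99 for Uqcrc2, 10.65 for Cox6c and 11.48 for Atp5b. These are probe-set levels and do not rank the genes against each other. The members lay high on the array, with a median level of 8.60 over 24 arrays against 7.45 for all tested genes. After a filter at the 40th percentile of gene means (5.85), 81 of the 89 members were tested among 11914 genes. The other 8 were Ndufa4l2, Ndufaf6, Cox4i2, Cox6b2, Cox7a1, Cox7b2, Cox8b and Cox8c. Ndufaf6 passed the filter of 5.76 in the 20 arrays, so that 82 members were tested there.

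**Figure D1:**
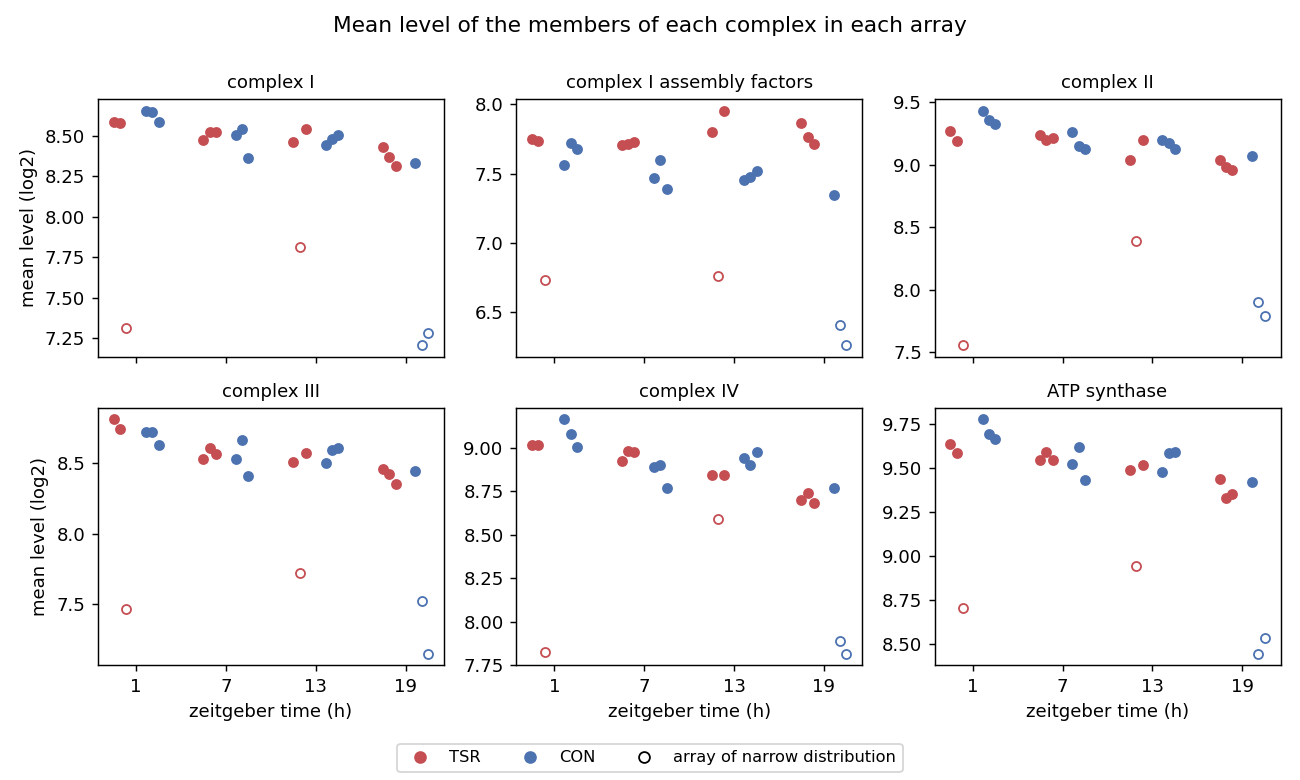
Mean log2 level of the tested members of each complex in each array, by zeitgeber time in hours, with TSR arrays in red to the left of CON arrays in blue. Hollow points are the 4 arrays of narrow distribution, which lie below all other arrays of every panel, and among the filled points TSR lies above CON for the complex I assembly factors at each of the 4 times, with the narrowest gap at ZT1.

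The levels of all 5 complexes moved with the width of the array. The mean level of complex I members was 7.31 in the narrow TSR ZT1 array, against 8.58 and 8.58 in the other TSR ZT1 arrays. At ZT19 the mean level of complex I members was 8.43, 8.37 and 8.31 in TSR, against 8.33, 7.21 and 7.28 in CON, of which the last 2 are narrow. The plot of complex means by array shows the same gap in every complex. A difference between conditions at ZT1, ZT13 or ZT19 in the 24 arrays therefore holds the gap between narrow and other arrays, while ZT7 has no narrow array.

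At ZT19, 36 of 81 members passed in the 24 arrays (limma with Benjamini-Hochberg adjustment over all genes, adjusted p under 0.05), 35 higher and 1 lower in TSR. Among all genes tested 55.3% passed, 44.3% higher and 11.1% lower. The members' share of 44.4% was not above this background. The median difference was 0.69 for the members and 0.60 for all genes, and it was larger at higher levels, being -0.11 over the 2979 genes of lowest mean level and 1.05 over the 2979 of highest level, among which were 45 of the 81 members. Ndufaf4, an assembly factor that acts early in complex I building, had levels of 7.48, 7.37 and 7.45 in TSR ZT19, against 6.82, 6.27 and 5.86 in CON ZT19. The groups did not overlap, and the lowest values were those of the 2 narrow CON arrays. Its difference was 1.12 ± 0.25 (standard error, adjusted p = 0.0196) with 24 arrays and 0.62 ± 0.14 (adjusted p = 0.00377) with 20.

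The other assembly factors called there at the smallest p were Ndufaf1 and Ndufaf5. Ndufaf1, part of the assembly complex for the membrane arm, had 7.99, 7.95 and 7.97 in TSR ZT19, against 7.61, 6.44 and 6.19 in CON ZT19. Ndufaf5, which modifies a core subunit, had 7.11, 6.79 and 6.69 in TSR ZT19, against 6.34, 5.63 and 5.47 in CON ZT19. Neither pair of groups overlapped, and again the narrow arrays were lowest. Ndufa9, an accessory subunit near the junction of the 2 arms of complex I, had 8.96, 8.88 and 8.87 in TSR ZT19, against 8.45, 6.94 and 6.74 in CON ZT19. Its difference of 1.53 ± 0.40 (adjusted p = 0.0196) with 24 arrays was 0.46 ± 0.09 (adjusted p = 0.00206) with 20. Cox6a2, the isoform of a complex IV subunit typical of heart and skeletal muscle, was the 1 member called lower. It had 6.12, 6.29 and 6.43 in TSR ZT19, against 6.47, 7.62 and 7.33 in CON ZT19, and with 20 arrays its difference was -0.19 ± 0.21 (adjusted p = 0.51). The count of 36 fell to 0 without either narrow CON array, to 0 without TSR ZT19 replicate 1 or 2 and to 13 without TSR ZT19 replicate 3, and was 61 without CON ZT19 replicate 1. With 20 arrays, 15 of 82 members passed at ZT19, 9 higher and 6 lower, against 24.9% of all genes, 17.9% higher and 6.99% lower.

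**Figure D2:**
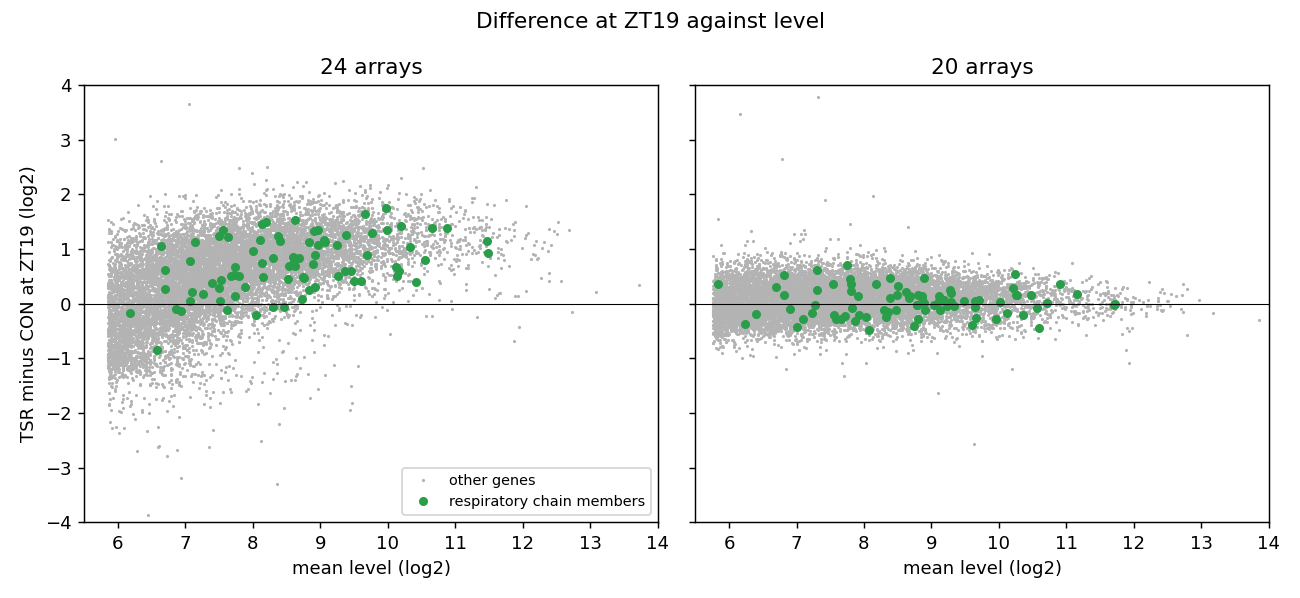
Difference between TSR and CON at ZT19 (log2) against the mean level of each gene (log2), with 24 arrays on the left and with the 20 arrays on the right. Green points are the respiratory chain members. On the left, 35 of 81 were called higher and 1 lower, against 44.3% and 11.1% of all genes. On the right, CON has 1 array at ZT19.

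At no other time, and not on average, did a member pass in the 24 arrays (limma, adjusted p under 0.05). At an unadjusted p under 0.05 the counts of 81 were 10 for the average over the 4 times, 9 at ZT1, 0 at ZT7 and 4 at ZT13. Of all genes, 2.39% passed the adjusted threshold and 16.1% the unadjusted one on average, 0.0504% and 4.1% at ZT1, 0.453% and 5.5% at ZT7, and 0.403% and 13.7% at ZT13. The median difference of the members was 0.04 on average, -0.47 at ZT1, 0.09 at ZT7 and -0.17 at ZT13, and that of all genes 0.02, -0.22, 0.00 and -0.18 at the same contrasts. The smallest p on average in each complex belonged to Ndufaf4 (0.40 ± 0.13, adjusted p = 0.0994), Sdhc (-0.19 ± 0.20, adjusted p = 0.663), Uqcrb (0.28 ± 0.12, adjusted p = 0.24), Cox6b1 (-0.16 ± 0.11, adjusted p = 0.527) and Atp5h (0.27 ± 0.12, adjusted p = 0.248).

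Without the narrow arrays, sleep restriction was accompanied by higher levels of some members and lower levels of others within the same complex. On average over the 4 times, 36 of 82 members passed (43.9%), 18 higher and 18 lower, against 56.8% of all genes, 34.1% higher and 22.6% lower. The median difference was 0.02 for the members and 0.03 for all genes. By complex, 8 of 35 complex I genes were higher and 8 lower, 6 of 7 assembly factors higher and 0 lower, 0 of 4 complex II genes higher and 1 lower, 2 of 8 complex III genes higher and 2 lower, 1 of 11 complex IV genes higher and 3 lower, and 1 of 17 ATP synthase genes higher and 4 lower. The median differences were 0.03 for complex I, 0.30 for its assembly factors, -0.07 for complex II, 0.00 for complex III, 0.02 for complex IV and -0.04 for the ATP synthase. Leaving out all ZT19 arrays as well, since CON has 1 there, gave 30 members on average, 15 higher and 15 lower.

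**Figure D3:**
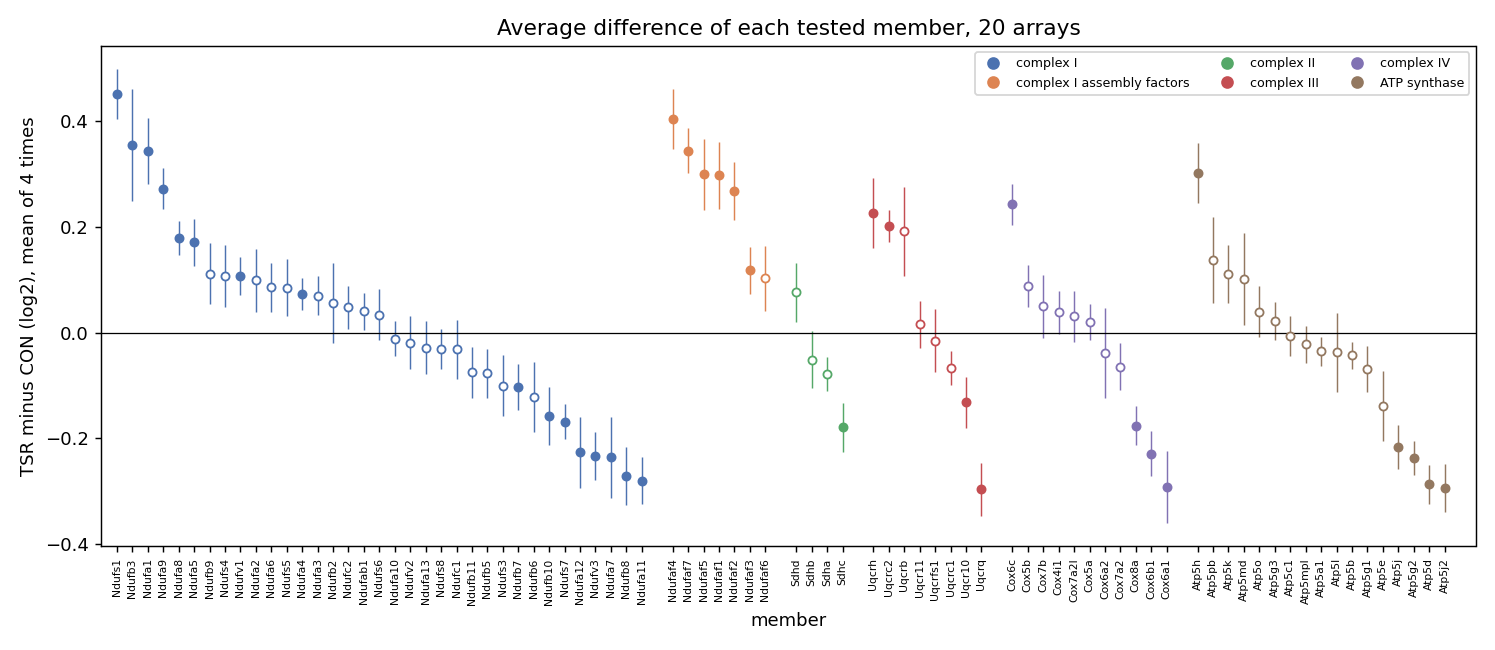
Difference between TSR and CON averaged over the 4 times (log2, with standard error) for each of the 82 members tested in the 20 arrays, grouped by complex and sorted within it. Filled points are the 36 members with an adjusted p under 0.05, and the 7 assembly factors of complex I all lie above 0 while every other complex has members on both sides.

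Ndufs1, an iron-sulfur subunit in the electron path of complex I, had the smallest p of all members. Its levels were 10.26, 10.49 and 10.64 in TSR (lowest, median and highest of the TSR arrays among the 20), against 9.77, 10.05 and 10.22 in CON. The 2 conditions did not overlap over the whole day. It rose by 0.45 ± 0.05 (adjusted p = 3.01e-07) on average and passed, higher, at each of the 4 times. With all 24 arrays its average difference was 0.49 ± 0.23 (adjusted p = 0.30), and its difference was -0.11 at ZT1 and -0.002 at ZT13.

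Among the assembly factors, Ndufaf7 was the other member called higher at all 4 times. This methyltransferase acts on a core subunit of complex I, and its levels were 8.38, 8.55 and 8.73 in TSR (lowest, median, highest), against 8.14, 8.21 and 8.36 in CON, again without overlap. It rose by 0.35 ± 0.04 (adjusted p = 1.71e-06). With all 24 arrays the direction of Ndufaf7 turned at ZT1 and ZT13. Its mean was 8.05 in TSR and 8.23 in CON at ZT1, and 8.07 in TSR and 8.22 in CON at ZT13. In the 20, Ndufaf4 ranged over 7.33, 7.49 and 7.55 in TSR and 6.82, 7.07 and 7.63 in CON, where the overlap came from the CON ZT1 arrays. It rose by 0.41 ± 0.06 (adjusted p = 7.23e-06). Ndufaf5 (0.30), Ndufaf1 (0.30), Ndufaf2 (0.27) and Ndufaf3 (0.12) also rose, and Ndufaf6 differed by 0.10 without passing. In the average contrast all 6 factors tested in 24 arrays lay above 0, with a median of 0.30 there too, but 0 of the 6 passed and 2 had an unadjusted p under 0.05. At ZT1, all 6 lay below 0 in the 24 arrays and 4 of 7 above 0 in the 20.

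The subunits of complex I moved in both directions. Beside Ndufs1, the accessory subunits Ndufb3 (0.36), Ndufa1 (0.34), Ndufa9 (0.27), Ndufa8 (0.18) and Ndufa5 (0.17) rose on average, as did Ndufv1 (0.11), which binds NADH and flavin, and Ndufa4 (0.07). Ndufa11 (-0.28), Ndufb8 (-0.27), Ndufa7 (-0.24), Ndufv3 (-0.23), Ndufa12 (-0.23), Ndufs7 (-0.17), Ndufb10 (-0.16) and Ndufb7 (-0.10) fell. Ndufs7 carries the last iron-sulfur cluster before ubiquinone, so subunits of the electron path were found in both sets. The other 19 complex I genes tested did not pass.

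In complex II, Sdhc, a membrane anchor, was the 1 gene called, and fell by 0.18 ± 0.05 (adjusted p = 0.00278). It had 8.79, 9.02 and 9.29 in TSR (lowest, median, highest), against 8.98, 9.25 and 9.45 in CON, with overlapping ranges. Sdha, the flavoprotein that oxidises succinate, differed by -0.08 ± 0.03 (adjusted p = 0.051). In complex III, the core protein Uqcrc2 rose by 0.20 ± 0.03 (adjusted p = 1.48e-05), with 10.22, 10.35 and 10.50 in TSR, against 10.09, 10.15 and 10.25 in CON, which overlap slightly, while the small subunit Uqcrq fell by 0.30 ± 0.05. Uqcrh rose by 0.23 and Uqcr10 fell by 0.13. Uqcrb, which had the smallest p of this complex in 24 arrays, ranged over 9.08, 9.41 and 9.57 in TSR and 8.65, 9.21 and 9.54 in CON, a difference of 0.19 ± 0.08 (adjusted p = 0.0593) with 20.

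In complex IV, Cox6c rose by 0.24 ± 0.04 (adjusted p = 3.95e-05), with 10.92, 11.01 and 11.10 in TSR (lowest, median, highest), against 10.49, 10.78 and 11.13 in CON. The other Cox6c probe set, at a lower mean level of 10.34, differed by 0.12. The ubiquitous isoforms Cox6a1 (-0.29), Cox6b1 (-0.23) and Cox8a (-0.18) fell. Cox6b1 ranged over 8.35, 8.68 and 8.97 in TSR and 8.66, 8.92 and 9.15 in CON. In the ATP synthase, Atp5h, of the peripheral stalk, rose by 0.30 ± 0.06 (adjusted p = 0.000188), with 10.11, 10.31 and 10.56 in TSR, against 9.86, 10.14 and 10.33 in CON. Atp5d of the central stalk fell by 0.29 ± 0.04 (adjusted p = 3.02e-06), with 10.28, 10.41 and 10.66 in TSR, against 10.61, 10.74 and 10.91 in CON. Atp5j2 (-0.29), Atp5g2 (-0.24) and Atp5j (-0.22) also fell, and the catalytic subunit Atp5b differed by -0.04 ± 0.03 (adjusted p = 0.147). Among these, the ranges of the 2 conditions overlapped for Cox6c, Cox6b1, Atp5h and Atp5d.

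ZT7 is the time without a narrow array, shortly after the hours of restriction end, and there 18 of 82 members passed with the spread of the 20 arrays (22.0%), 14 higher and 4 lower, against 27.1% of all genes, 13.1% higher and 14% lower. The differences at ZT7 are the same in both fits and only their errors differ. The median was 0.08 for the members and 0.00 for all genes, and 57 of 82 members lay above 0, against 5971 of 11914 genes. The 3 TSR values lay apart from the 3 CON values for 27 of the 82 members, 18 higher and 9 lower, against 36.4% of all genes, 17.5% higher and 18.9% lower. A fit of the 6 ZT7 arrays alone called 11 members, 9 higher and 2 lower. The share of all genes called in that fit is not given here, and the 27.1% belongs to the fit of the 20 arrays.

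Ndufv1 had the smallest p among complex I genes at ZT7. It had 9.38, 9.37 and 9.36 in TSR, against 9.182, 8.998 and 8.968 in CON, so that all TSR arrays lay above all CON arrays (0.32 ± 0.06, adjusted p = 0.000542). Ndufaf4 had 7.55, 7.46 and 7.51 in TSR, against 6.99, 7.14 and 6.94 in CON, again without overlap (0.48 ± 0.10, adjusted p = 0.000852). Ndufa9 (0.33), Ndufa8 (0.25), Ndufaf1 (0.45), Ndufs1 (0.33), Ndufaf7 (0.21) and Ndufa10 (0.16) also rose. Ndufv3, an accessory subunit beside Ndufv1 in the NADH-binding module, had 7.55, 7.55 and 7.55 in TSR, against 7.82, 7.91 and 7.87 in CON, and fell by 0.32 ± 0.08 (adjusted p = 0.00421). The 2 neighbours in the same module thus moved in opposite directions at this time.

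In the other complexes at ZT7, Uqcrc2 had 10.35, 10.35 and 10.39 in TSR, against 10.21, 10.22 and 10.13 in CON (0.18 ± 0.05, adjusted p = 0.0116), and Uqcrq had 7.89, 8.02 and 7.93 in TSR, against 8.36, 8.04 and 8.20 in CON (-0.25 ± 0.09, adjusted p = 0.0328). Cox6c had 10.972, 10.977 and 10.997 in TSR, against 10.85, 10.75 and 10.49 in CON (0.29 ± 0.07, adjusted p = 0.00319). None of these 3 genes had overlapping groups. Cox5a, a subunit facing the matrix, rose by 0.23, while Cox6a2 had 6.43, 6.56 and 6.78 in TSR, against 6.26, 6.02 and 6.63 in CON, which overlap (0.29 ± 0.15, adjusted p = 0.156). In complex II none of the 4 genes passed, and 2 had an unadjusted p under 0.05. Sdhc had 9.02, 9.16 and 9.02 in TSR, against 9.32, 9.17 and 9.34 in CON (-0.21 ± 0.08, adjusted p = 0.052), and Sdhd, the other membrane anchor, had 8.80, 8.89 and 8.85 in TSR, against 8.81, 8.65 and 8.43 in CON (0.21 ± 0.10, adjusted p = 0.104). The Sdhd groups overlapped and the Sdhc groups did not. Atp5k, a small membrane subunit of the ATP synthase, had 7.51, 7.54 and 7.44 in TSR, against 7.33, 7.19 and 7.09 in CON, without overlap, and rose by 0.29 ± 0.09 (adjusted p = 0.0231).

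**Figure D4:**
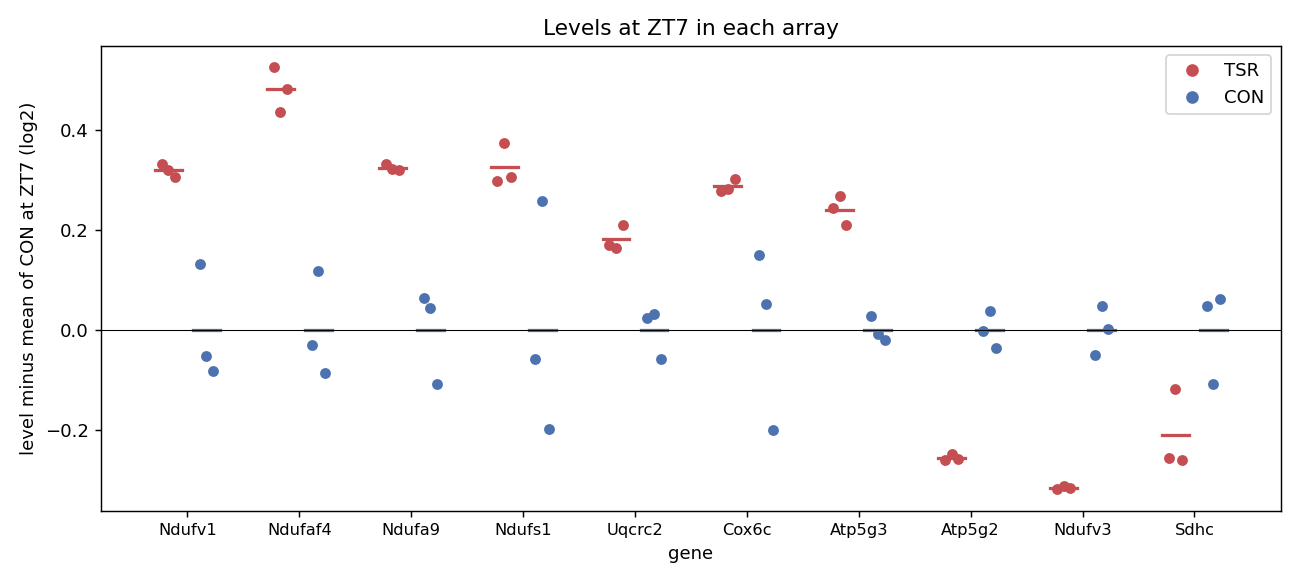
Levels at ZT7 of 10 members in each of the 3 TSR arrays (red, left) and 3 CON arrays (blue, right), as log2 units from the mean of the CON arrays, with short lines at the group means. Sdhc, with an adjusted p of 0.052, is the one shown that did not pass with the spread of the 20 arrays.

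The 3 genes of the ATP synthase c-ring, whose mature proteins are the same, differed from one another. At ZT7, Atp5g2 had 9.84, 9.85 and 9.84 in TSR, against 10.10, 10.14 and 10.07 in CON, and fell by 0.26 ± 0.05 (adjusted p = 0.0014). Atp5g3 had 9.84, 9.86 and 9.81 in TSR, against 9.62, 9.59 and 9.58 in CON, and rose by 0.24 ± 0.06 (adjusted p = 0.00636). Atp5g1 had 8.59, 8.68 and 8.48 in TSR, against 8.51, 8.29 and 8.31 in CON, which overlap, and rose by 0.21 ± 0.07 (adjusted p = 0.036). At ZT13, Atp5g1 fell by 0.41 and Atp5g2 by 0.36. With 24 arrays none of the 3 passed at ZT7, and at ZT13 the differences were -0.41 for Atp5g1 (adjusted p = 0.239) and -0.75 for Atp5g2 (adjusted p = 0.487). Whether their probe sets share signal was not tested.

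Of the other isoform families, 6 members known from heart, skeletal muscle, testis or lung lay under the filter, as did Ndufa4l2, known to respond to low oxygen. In the 20 arrays, Cox4i2 ranged from 5.37 to 5.82 in TSR and 5.25 to 5.80 in CON, Cox6b2 from 5.42 to 5.85 in TSR and 5.63 to 5.97 in CON, and Cox7a1 from 4.79 to 5.45 in TSR and 4.96 to 5.29 in CON. Cox8b ranged from 4.84 to 5.49 in TSR and 5.03 to 5.47 in CON, Cox8c from 5.24 to 5.55 in TSR and 5.14 to 5.73 in CON, Cox7b2 from 3.40 to 3.94 in TSR and 3.38 to 3.83 in CON, and Ndufa4l2 from 4.91 to 5.36 in TSR and 4.93 to 5.71 in CON. All of these ranges overlap between conditions. The ubiquitous partners Cox4i1, Cox7a2 and Cox7b were tested and did not pass on average, with differences of 0.04, -0.06 and 0.05, nor did Cox7a2l, at 0.03.

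At ZT13, 40 of 82 members passed in the 20 arrays (48.8%), 21 higher and 19 lower, against 46.4% of all genes, 24.5% higher and 21.9% lower. The members' share was near this background. Cox6a1 fell by 0.69 ± 0.13 (adjusted p = 0.000236), with 8.37 and 8.45 in the 2 TSR arrays used, against 8.94, 9.16 and 9.21 in CON. Of the assembly factors 6 of 7 lay above 0 here, with a median of 0.38, among them Ndufaf5 (0.60) and Ndufaf4 (0.53). With 24 arrays, 3 of the 6 tested lay above 0 at ZT13, with a median of 0.02, and 0 passed. At ZT1, 14 of 82 members passed (17.1%), 4 higher and 10 lower, against 10.1% of all genes, 7.02% higher and 3.10% lower. Those higher were Uqcr11, Ndufs1, Ndufaf7 and Uqcrc2, and 5 of the 10 lower ones were ATP synthase genes, among them Atp5mpl (-0.52). This count is fragile: it was 4 without TSR ZT1 replicate 1, 2 without TSR ZT1 replicate 2 and 8 without CON ZT1 replicate 1. Across the 4 times, 34 members passed at none, 2 were higher at all 4 (Ndufs1 and Ndufaf7), and Atp5d, Atp5g2 and Atp5j2 were lower at 3. With 24 arrays the direction of these 3 turned at ZT19, where the differences were 1.42 for Atp5d, 0.88 for Atp5g2 and 0.59 for Atp5j2, and that of Uqcrc2 turned at ZT1 (-0.39) and ZT13 (-0.13). The direction of Ndufs1 and Ndufaf7 also turned at ZT1 and ZT13 with 24 arrays. Calls across the 4 times were not counted over all genes, so these counts of members have no background share. In the 20 arrays the direction alone was the same at all 4 times for 25 of 82 members and 4545 of 11914 genes.

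The effect of sleep restriction itself differed between times for 31 of 82 members in the 20 arrays (37.8%), against 29.9% of all genes. In 24 arrays 0 of 81 passed and 32 had an unadjusted p under 0.05, while of all genes 0.311% passed and 41.6% had an unadjusted p under 0.05. The 31 fell to 15 without TSR ZT1 replicate 1, 17 without TSR ZT1 replicate 2 and 20 without CON ZT1 replicate 2, and there were 31 again over the 3 other times when all ZT19 arrays were left out. Atp5mpl, a small membrane proteolipid of the ATP synthase, had the smallest p (adjusted p = 3.92e-05). At ZT1 it had 8.81 and 8.67 in TSR, against 9.31, 9.23 and 9.26 in CON, and at ZT13 it had 8.81 and 8.83 in TSR, against 8.67, 8.69 and 8.60 in CON. TSR thus lay below CON at ZT1 and above it at ZT13, without overlap at either time.

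Daily rhythms were tested as a wave with a 24-h period. In the 20 arrays every rhythm in CON uses the 1 CON ZT19 array. Any deviation of that array enters the CON peaks of all members together. In TSR, 31 of 82 members passed in the 20 arrays (37.8%), against 21.8% of all genes, and in CON 26 (31.7%), against 21.7% of all genes. With 24 arrays 0 of 81 passed in either (limma), and 2 in TSR and 47 in CON had an unadjusted p under 0.05, while of all genes 0.0923% passed in TSR and 0.109% in CON, and 2.37% and 31.6% in the same conditions were under the unadjusted threshold. Without CON ZT19 replicate 1, 64 members passed in CON with the other 23 arrays, a fit whose share of all genes is not given here. The 12 members called in both conditions were 38.7% of the TSR list and 46.2% of the CON list. Fitted peaks fell between ZT0 and ZT6 in 22 of the 31 members called in TSR (71.0%) and in 24 of the 26 called in CON (92.3%), against 32.9% of all genes called in TSR and 39.3% in CON. The remaining 9 TSR peaks lay between ZT6 and ZT12. Median amplitude, the distance from mean to peak, was 0.19 log2 units in TSR and 0.21 in CON among those called. By complex, 10 of 17 ATP synthase genes passed in TSR and 5 in CON, 11 of 35 complex I genes in TSR and 15 in CON, and 5 of 11 complex IV genes in TSR and 2 in CON. The differences between these counts were not tested.

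**Figure D5:**
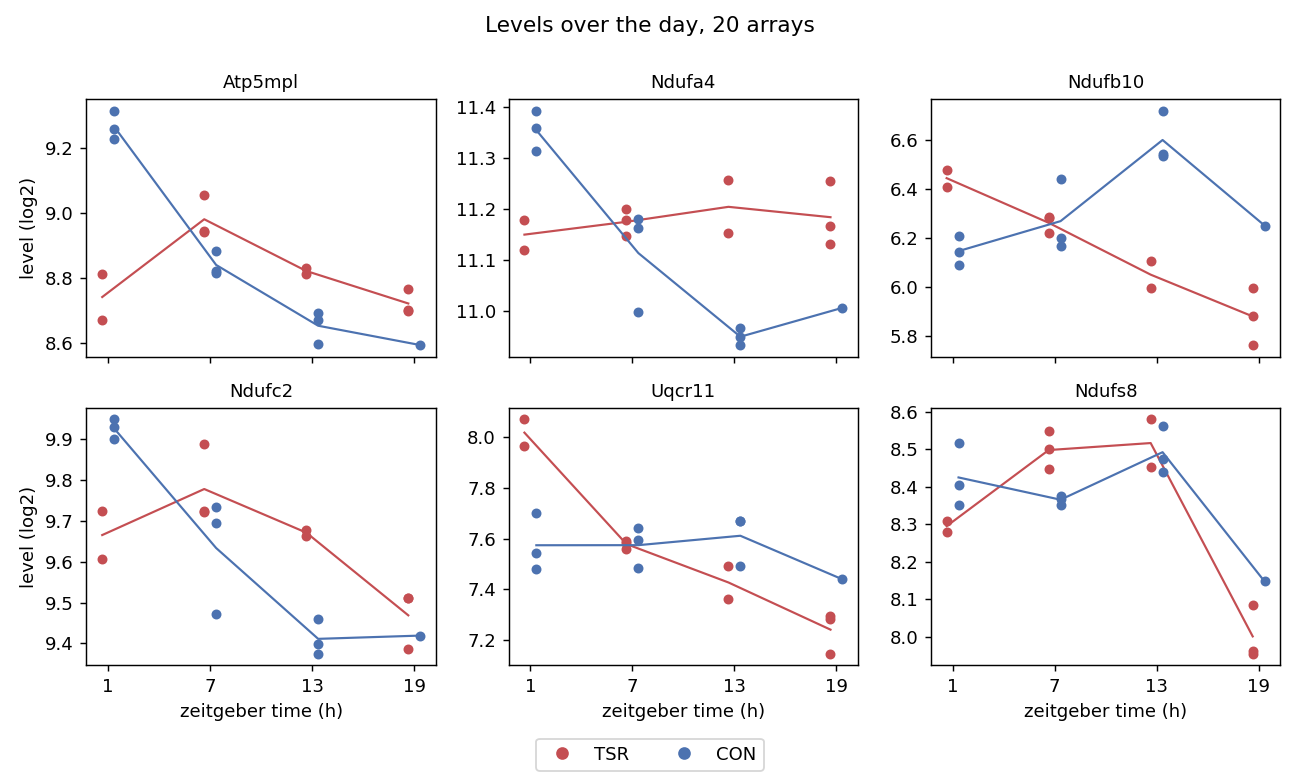
Levels (log2) of 6 members at zeitgeber times 1, 7, 13 and 19 h in the 20 arrays, with TSR in red and CON in blue, a point per array and lines through the group means. Atp5mpl, Ndufa4 and Ndufc2 are highest at ZT1 in CON and not in TSR, and Uqcr11 is highest at ZT1 in TSR.

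The members with the smallest p for a rhythm in CON were Atp5mpl (amplitude 0.33, peak at ZT2.5, adjusted p = 2.34e-06), Ndufa4 (0.21, ZT2.0, adjusted p = 5.78e-05) and Ndufc2 (0.28, ZT2.5, adjusted p = 6.8e-05). Ndufa4 had 11.18 and 11.12 at ZT1 and 11.26 and 11.15 at ZT13 in TSR, where its rhythm did not pass (amplitude 0.03, adjusted p = 0.764). In CON it had 11.39, 11.36 and 11.31 at ZT1 and 10.97, 10.95 and 10.93 at ZT13, so that the ZT1 arrays lay above the ZT13 arrays in CON and not in TSR. Ndufc2, an accessory subunit of the membrane arm, had 9.72 and 9.61 in TSR ZT1, against 9.90, 9.95 and 9.93 in CON ZT1. It had 9.68 and 9.66 in TSR ZT13, against 9.46, 9.40 and 9.38 in CON ZT13, so that the order of the conditions turned between these times.

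In TSR the smallest p belonged to Ndufs8, an iron-sulfur subunit of complex I (amplitude 0.27, peak at ZT8.6, adjusted p = 4.74e-05), to Uqcr11, a small subunit of complex III (0.34, ZT3.0, adjusted p = 0.000106), and to Atp5j2 (0.27, ZT6.9, adjusted p = 0.000189). Ndufs8 had 8.28 and 8.31 at ZT1, 8.55, 8.50 and 8.45 at ZT7, 8.58 and 8.45 at ZT13 and 7.96, 8.08 and 7.96 at ZT19 in TSR, lowest at ZT19. Uqcr11 had 8.07 and 7.96 at ZT1 and 7.28, 7.30 and 7.15 at ZT19 in TSR, against 7.70, 7.54 and 7.48 at ZT1 and 7.44 at ZT19 in CON, where it did not pass (adjusted p = 0.587). Atp5j2 had 9.53 and 9.43 at ZT1, 9.80, 9.63 and 9.58 at ZT7, 9.48 and 9.46 at ZT13 and 9.27, 9.09 and 9.01 at ZT19 in TSR. The rhythm differed between conditions for 25 of 82 members (30.5%), against 29.3% of all genes, and for 0 of 81 with 24 arrays, where 6 had an unadjusted p under 0.05, and of all genes 0.252% passed and 11.7% had one. Atp5mpl, Ndufb10 and Ndufa4 led this list. Ndufb10, an accessory subunit of the membrane arm, had 6.48 and 6.41 at ZT1 and 5.995 and 6.10 at ZT13 in TSR, against 6.21, 6.09 and 6.14 at ZT1 and 6.54, 6.54 and 6.72 at ZT13 in CON, with peaks at ZT3.9 in TSR and ZT12.8 in CON. The 25 were 14 without TSR ZT1 replicate 1.

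Genes outside the name rule were taken from lists of the same pathway, and the counts that follow are for the average contrast in the 20 arrays. The list of 6 other subunits and electron-transfer partners had 2 higher and 0 lower. Both mitochondrially encoded subunits on the array fell, ND3 by 0.29 and COX2 by 0.16. Of 32 tested assembly factors of the chain without the Ndufaf genes, 16 were higher and 3 lower, with a median of 0.14. Among them Tmem126b, which joins Ndufaf1 in building complex I, rose by 0.36, Coa5 by 0.27 and Sdhaf3 by 0.25, and Uqcc2, a complex III factor, fell by 0.41. Of 17 enzymes of the Krebs cycle and pyruvate dehydrogenase, 9 were higher and 1 lower, with a median of 0.15, including Pdha1 (0.36), Idh3a (0.40), Fh1 (0.28) and Dld (0.37). Of 75 mitochondrial ribosomal proteins, 22 were higher and 9 lower, with a median of 0.07. Of 15 regulators of mitochondrial biogenesis, 6 were higher and 2 lower, among them the coactivator Ppargc1a (0.40), Tfb2m (0.39) and Gabpa (0.26), while Polrmt, the mitochondrial RNA polymerase, fell by 0.25. The background share of all genes was 34.1% higher and 22.6% lower. With 24 arrays these lists held 2 calls in all (limma, adjusted p under 0.05). The mitochondrial ribosomal proteins had 0 higher and 2 lower of 75. There were 0 calls among the 2 mitochondrially encoded subunits (1 with an unadjusted p under 0.05), the 6 other subunits and partners (0), the 32 assembly factors (3), the 17 Krebs cycle enzymes (1) and the 15 regulators (3).

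Markers of brain regions and cell types moved with the same contrast in the 20 arrays. The background of all genes is the one stated above for the average contrast, and for ZT7 the one stated with the members at that time. All 9 tested markers of the mediobasal hypothalamus were lower (median -0.26), and their mean level ranged from 7.10 to 7.36 in TSR and 7.35 to 7.64 in CON. All 8 suprachiasmatic markers were lower (median -0.41), and the 7 of them tested in both sets of arrays had mean levels of 7.29 to 8.15 in TSR and 7.66 to 8.14 in CON. Of 8 markers of striatum and forebrain cholinergic neurons 7 were higher and 0 lower (median 0.70), and the mean level of the 7 tested in both sets of arrays was 7.32 to 8.04 in TSR and 6.50 to 7.56 in CON. Of 6 markers of cortex and thalamus 5 were higher and 0 lower (median 0.57), with mean levels of 6.83 to 7.57 in TSR and 6.35 to 7.04 in CON. Of 9 oligodendrocyte markers 7 were higher and 0 lower (median 0.24), of 12 neuronal markers 3 were higher and 3 lower (median 0.01), and of 10 astrocyte markers 2 were higher and 4 lower (median 0.03). Of 7 microglial markers 1 was higher and 2 lower, of 6 endothelial ones 3 higher and 1 lower, of 6 of ependyma and tanycytes 1 higher and 2 lower, and of 2 of choroid plexus 2 higher. At ZT7, 4 of 9 mediobasal and 8 of 8 suprachiasmatic markers were lower and 7 of 8 striatal and cholinergic markers higher. The calls at ZT7 among neuronal markers were mostly higher, unlike on average. Those among astrocyte, ependymal and tanycyte markers were mostly lower. With 24 arrays fewer markers passed on average (limma, adjusted p under 0.05), where 2.39% of all genes passed. These were 1 of 9 mediobasal and 2 of 7 suprachiasmatic markers, all lower, and 4 of 7 striatal and cholinergic, 2 of 6 cortical and thalamic, 1 of 5 endothelial and 1 of 2 choroid plexus markers, all higher. There were 0 calls among 9 oligodendrocyte (0 with an unadjusted p under 0.05), 12 neuronal (2), 10 astrocyte (2), 6 microglial (1) and 5 ependymal and tanycyte markers (1). At ZT7 with 24 arrays, 0 of 9 mediobasal markers (1 unadjusted) and 1 of 7 suprachiasmatic markers were lower, and 6 of 7 striatal and cholinergic markers were higher. Calls there were 0 of 12 neuronal (1 unadjusted), 0 of 10 astrocyte (1) and 0 of 5 ependymal and tanycyte markers (2). Of all genes 0.453% passed at that time. The part of these markers in the differences of the respiratory chain members was not tested.

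Promoters are shown for 4 members that were called and that hold a searched motif. Sequences are from RefSeq, build GRCm38.p6, and 73 of the 89 members matched by gene number. The 250 bases before the first listed start of each gene were searched on both strands for the 10-base site of the nuclear respiratory factor NRF1, CCGGAAG, a site of the ETS factor GABPA, the site of YY1 and CACGTG, the E-box bound by the clock factors CLOCK and BMAL1. Matches are in capitals, and no 2 motifs overlap in these 4 windows. Ndufaf4 (chr4:24897833-24898082, plus strand), higher in TSR, and Atp5g2 (chr15:102671048-102671297, minus strand), lower in TSR, each hold 1 NRF1 match. Cox6a1 (chr5:115348959-115349208, minus strand), lower in TSR, holds 2 NRF1 matches and 1 GABPA match, and Ndufv1 (chr19:4012756-4013005, minus strand), higher at ZT7, holds 1 E-box.
Ndufaf4: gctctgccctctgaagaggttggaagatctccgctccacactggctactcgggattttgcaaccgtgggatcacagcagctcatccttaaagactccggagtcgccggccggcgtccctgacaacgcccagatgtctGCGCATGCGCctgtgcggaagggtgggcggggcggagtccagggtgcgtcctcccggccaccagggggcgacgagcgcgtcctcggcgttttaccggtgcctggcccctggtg
Ndufv1: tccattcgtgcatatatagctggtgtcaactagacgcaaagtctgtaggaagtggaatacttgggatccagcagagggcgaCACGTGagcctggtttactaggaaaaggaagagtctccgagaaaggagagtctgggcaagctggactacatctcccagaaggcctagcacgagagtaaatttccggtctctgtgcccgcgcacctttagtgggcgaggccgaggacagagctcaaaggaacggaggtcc
Cox6a1: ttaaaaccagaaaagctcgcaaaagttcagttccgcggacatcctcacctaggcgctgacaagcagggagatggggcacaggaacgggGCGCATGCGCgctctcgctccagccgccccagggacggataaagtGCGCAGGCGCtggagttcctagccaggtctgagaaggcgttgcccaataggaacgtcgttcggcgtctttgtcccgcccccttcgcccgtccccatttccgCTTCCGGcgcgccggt
Atp5g2: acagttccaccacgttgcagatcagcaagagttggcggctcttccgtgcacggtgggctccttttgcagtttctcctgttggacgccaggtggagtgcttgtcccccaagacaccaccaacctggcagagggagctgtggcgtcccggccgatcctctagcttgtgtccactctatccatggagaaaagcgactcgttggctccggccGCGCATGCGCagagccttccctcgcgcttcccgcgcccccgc
NRF1 matches were found in 12 of the 73 members (16.4%), against 3.86% of the 27025 promoters in the table. GABPA matches were found in 12 members (16.4%), against 7.05%, E-boxes in 6 members (8.22%), against 6.05%, and the YY1 motif in 0 members, against 0.218%. Of the 12 tested members with an NRF1 match, 4 were higher and 3 lower in TSR on average, and of the 57 without one, 11 were higher and 13 lower. Members with this match were thus found in both directions.

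Properties of the genes were set against the average difference in the 20 arrays as a description. Over the 82 members, the rank correlation of the difference with gene length was 0.10, and over 11911 genes it was 0.29. It was -0.02 with the mean level over the members and 0.11 over all genes. Genes are not independent replicates. Of the 41 members longer than the median of 7445 bases, 10 were higher and 9 lower, and of the 41 shorter ones 8 were higher and 9 lower. Of all genes tested, 3709 of the 9650 longer than that length were higher and 1952 lower, and 354 of the 2261 shorter ones were higher and 745 lower. The split of all genes thus leaned to higher among long genes and to lower among short ones, and whether the members differ from it was not tested. Most members (72 of 89) had 1 probe set, and of the 17 with several, 15 had the same sign of the average difference in all of them.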

How the data were processed

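RNA of the mediobasal hypothalamus was measured on 24 Affymetrix arrays, 3 mice for each of 8 groups per the series' design. The authors deposited 1 log2 signal per probe set and array, made with Affymetrix Expression Console per the submitters' processing notes. Its version, summarisation and normalisation are stated in no source used here, and the log2 scale was read from the values. In 2604 of 853344 cells (0.305%) the decimal point was lost and was restored from the other arrays, and 48 cells were set to missing. Members had 7 restored cells and no missing one. Of 35556 probe sets, 21789 carried 1 gene symbol, 1621 carried several (among them those of Cox7c and Ndufb4) and 12146 none. Of those with 1 symbol, the 21698 matched by gene number to RefSeq were used.

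Each gene was read from its probe set of highest mean, and genes under the 40th percentile of means were left out. The 8 group means were fitted in R 4.3.3 with limma 3.58.1, empirical Bayes with a trend, and p-values were adjusted over all genes by Benjamini-Hochberg. Contrasts were TSR minus CON at each time and averaged, their difference between times, and 24-h rhythms from ZT1 against ZT13 and ZT7 against ZT19. The fit was repeated without 4 arrays of interquartile range under 2.5. The restoration of decimal points was tested on deposited values whose decimal point had been moved on purpose. Promoters were read in Python 3.11.15.

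Values by array are given for the member of each complex with the highest level or the smallest p on average or at ZT7, for the leading calls of the 24 arrays and of the rhythm tests, and for isoform families. Genes outside the rule are named from lists, at most 4 each by smallest p. Others in a sentence were chosen after their values were seen. Members and lists were chosen with earlier results of these data known. Nothing in the sources used here says more of the replicates than that they are separate mice, so the p-values reflect only how far these mice differ within a group. Correlations between same-numbered TSR and CON arrays ranged from -0.427 to 0.393, with 5 of 12 over 0.1, and numbers were not taken as pairs. At ZT7 they were -0.03, 0.083 and -0.075. Groups at the other times hold narrow arrays, so the correlations there cannot show whether equal numbers mark pairs. Alternatives were quantile normalisation, array weights, a term for the narrow arrays, other filters and probe-set rules, cells as deposited or missing, a replicate block and each array left out.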

Additional observations from a re-analysis of the deposited data

Results flagged for a closer look

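In the 20 arrays, the effect of sleep restriction differed between times for 31 members and the daily rhythm differed between conditions for 25, by limma's test of the difference itself with adjusted p under 0.05. In the 24 arrays neither test called a member, against 0.311% and 0.252% of all genes. With the 20 arrays, the share of all genes stated above was close to that of the members for the rhythm. It was lower than theirs for the difference between times. Both tests use CON ZT19, which has 1 array there, and both counts fell when TSR ZT1 replicate 1 was also left out.

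The named members that differed both ways have adjusted p-values for the difference between times, then for the difference in rhythm, as follows. In complex I these were 0.00197 and 0.00119 for Ndufa4, 0.00979 and 0.0155 for Ndufv1, 0.0172 and 0.0453 for Ndufa9, and 0.00612 and 0.00419 for Ndufc2. They were 0.00143 and 0.000705 for Ndufb10, 0.0457 and 0.0244 for Ndufa11, and 0.0254 and 0.0236 for Ndufb11, whose effect was 0.23 at ZT13 (adjusted p = 0.0466) and did not pass at the other times. Among the assembly factors they were 0.0187 and 0.0298 for Ndufaf4 and 0.0251 and 0.013 for Ndufaf5. In complexes III and IV they were 0.00228 and 0.00206 for Uqcr11 and 0.0402 and 0.0446 for Cox6c. In the ATP synthase they were 3.92e-05 and 0.000112 for Atp5mpl, 0.0303 and 0.0169 for Atp5d, 0.00243 and 0.00409 for Atp5k, and 0.0335 and 0.0223 for Atp5g2. Sdha (0.0421) and Atp5b (0.0155) differed between times.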

How the results depend on the processing

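Counts are of members called, in the order average, ZT1, ZT7, ZT13, ZT19, difference between times, rhythm in TSR, rhythm in CON and difference in rhythm. Shares of all genes are given above for the main fits of the 24 and the 20 arrays. They are not given for the alternatives or the fits with an array left out. Whether a change in those counts is particular to the members therefore cannot be read from them. All 24 arrays gave 0, 0, 0, 0, 36, 0, 0, 0 and 0. Leaving out the 4 narrow arrays gave 36, 14, 18, 40, 15, 31, 31, 26 and 25, and quantile normalising these 20 arrays 44, 22, 23, 42, 27, 37, 45, 36 and 36. A term for the narrow arrays gave 29, 3, 6, 20, 9, 11, 7, 12 and 15. Array weights, whose estimation did not converge, gave 64, 28, 28, 54, 68, 74, 67, 77 and 74. Quantile normalisation of all 24 gave 3 on average and 1 at ZT13, and the arrays of 1 time alone gave 11 at ZT7 and 0 at ZT19. With the decimals as deposited, ZT19 had 32. Other filters, the mean of all probe sets, a robust fit without trend and affected cells set to missing left every count of the 24 arrays within 1.5 times.

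With 1 array left out of the 24, counts ranged from 0 to 3 on average, 0 to 1 at ZT13, 0 to 61 at ZT19, 0 to 57 for the difference between times, 0 to 64 for the rhythm in CON and 0 to 23 for the difference in rhythm, and were 0 at ZT1, ZT7 and for the rhythm in TSR. The values of 61, 57, 64 and 23 are those without CON ZT19 replicate 1, which leaves that group with its narrow arrays. With 1 more array left out of the 20, they ranged from 32 to 41, 2 to 18, 12 to 21, 27 to 45, 13 to 19, 15 to 33, 21 to 38, 20 to 32 and 14 to 29 in the order above, and CON ZT19 replicate 1 could not be left out of contrasts that use that group. The replicate number as a block gave 39 at ZT19 and 0 elsewhere in the 24 arrays, and 39, 15, 17, 40, 13, 28, 31, 28 and 24 in the 20, so no count moved by over 1.5 times. The alternatives within the 20 arrays were chosen after seeing the data.

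Of 73 values of named members called in the 20 arrays, 5 kept their call in the 24, 59 lost it and 9 turned. In the 24 arrays those were, at ZT1, -0.11 for Ndufs1 and -0.39 for Uqcrc2, at ZT13 -0.079 for Ndufa4, -0.002 for Ndufs1, -0.13 for Uqcrc2 and -0.014 for Ndufa9, and at ZT19 1.42 for Atp5d, 0.88 for Atp5g2 and 0.59 for Atp5j2. Ndufaf7, which is not among these values, turned at ZT1 and ZT13 as well. The 24 arrays differ from the 20 by the narrow arrays alone, and why those are narrow was not tested.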
